A study of Homo sapiens with 8 samples.

Results

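Polyamines are small, positively charged molecules that dividing cells need for translation and growth, and 10 genes that make, break down or regulate them were followed here in drug-treated lung cancer cells. The genes were a named list: the synthesis enzymes ODC1, AMD1, SRM and SMS, the catabolic enzymes SAT1, SMOX and PAOX, the antizymes OAZ1 and OAZ2, and the antizyme inhibitor AZIN1. All 10 were found on the array, among 19775 genes tested. Each gene was read on the probe set annotated to it alone with the highest mean over the arrays, and its other probe sets served as a check.

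The cells were NCI-H1975, an established human lung adenocarcinoma line driven by mutant EGFR. Cultures received DMSO vehicle, 10 nM osimertinib (an inhibitor of mutant EGFR), 1 µM alpelisib (an inhibitor of the PI3K alpha isoform) or both drugs, each without or with 2 mM L-histidinol. L-histidinol is a histidine analogue that blocks the charging of tRNA with histidine and so mimics amino acid shortage. Every condition lasted 24 h, and the medium was RPMI1640 with 10% FBS and kanamycin throughout. One Affymetrix HG-U133 Plus 2.0 array was made for each of the 8 conditions, so no condition had a replicate.

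With 1 array a condition, the spread came from a fit in which the effects of L-histidinol and of the drug treatment add up on the log2 scale. Its error therefore holds real interaction as well as noise, and nothing in the labels says whether arrays came from separate cultures. L-histidinol was compared over 4 array pairs with the same drug treatment. Each drug treatment was compared with vehicle over 2 pairs, so these comparisons with vehicle share the 2 vehicle arrays. A gene was called where its Benjamini-Hochberg adjusted p from limma, taken over all genes, was below 0.05. In bulk RNA, fewer cells with a transcript and less transcript per cell cannot be told apart.

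Ornithine decarboxylase (ODC1) starts polyamine synthesis by making putrescine from ornithine. S-adenosylmethionine decarboxylase (AMD1) supplies the aminopropyl donor that spermidine synthase (SRM) and spermine synthase (SMS) add to putrescine and then to spermidine. SAT1 acetylates spermidine and spermine for export or oxidation by PAOX, and SMOX oxidises spermine directly. The antizymes bind ODC1 protein and send it for degradation, AZIN1 takes antizyme away from ODC1, and ODC1 is a textbook target gene of the transcription factor MYC.

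Intensity quartiles were alike on the 8 arrays, with medians of 21.8 to 22.4, and arrays correlated with each other at 0.974 to 0.996 across genes, which are not independent replicates. The ACTB 3′ to 5′ probe set ratio, a sign of RNA integrity, was 1.04 to 1.07 without L-histidinol and 1.10 to 1.15 with it, while that of GAPDH was 0.966 to 1.01. The epithelial markers KRT8, KRT18, KRT19, EPCAM, CDH1 and NKX2-1 had mean log2 intensities of 8.53 to 12.5. Their summed log2 level ran from 64.8 to 66.9 on the arrays without a drug and from 67.1 to 70.3 on the drug-treated arrays. Of these 6 markers, 4 were called higher under osimertinib, against 16.4% of all genes tested. Under alpelisib 3 were called higher, against 7.08%, and under both drugs 4, against 21.4%. Under L-histidinol 4 were called lower, against 9.17%. The part of these markers in the results on polyamine genes was not tested. The 8 markers of other cell types had mean log2 intensities of 2.17 to 5.79, their sum ran from 31.3 to 32.9, and the leukocyte marker PTPRC was at 2.82. LUM, a stromal marker at a mean of 2.17, was 1 of the 8 called, higher by 0.63 under osimertinib and by 1.23 under both drugs. Known targets of the treatments moved as follows. DUSP6, a target of ERK signalling, fell by 3.99 log2 units under osimertinib, and ASNS, a target of the amino acid response, rose by 2.02 under L-histidinol. IRS2, which PI3K signalling represses, rose by 0.90 under alpelisib but also by 0.87 under L-histidinol. Of the 7 treatment readouts IRS2 alone was called under alpelisib, where 11.5% of all genes were called either way.

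Promoter windows are shown for the synthesis genes ODC1 and SRM, which fell furthest, and for SAT1, which rose. Each runs from 250 bases before to 50 bases after a transcription start in RefSeq (GRCh38.p14), is read 5′ to 3′ on the gene's strand, and carries the E-box CACGTG, the letters that MYC with MAX binds, in capitals. ODC1 has a pair of annotated starts, and its downstream window held 2 E-boxes, beginning at bases 222 and 256 of the window, on either side of the start at base 251.
SRM, chr1:11059969-11060268, minus strand: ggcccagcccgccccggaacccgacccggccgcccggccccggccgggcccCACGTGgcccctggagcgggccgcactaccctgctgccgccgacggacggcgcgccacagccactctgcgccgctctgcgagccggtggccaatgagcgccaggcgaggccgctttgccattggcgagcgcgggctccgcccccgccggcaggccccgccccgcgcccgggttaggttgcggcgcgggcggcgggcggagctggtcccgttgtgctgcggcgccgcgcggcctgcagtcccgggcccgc
ODC1 upstream start, chr2:10448278-10448577, minus strand: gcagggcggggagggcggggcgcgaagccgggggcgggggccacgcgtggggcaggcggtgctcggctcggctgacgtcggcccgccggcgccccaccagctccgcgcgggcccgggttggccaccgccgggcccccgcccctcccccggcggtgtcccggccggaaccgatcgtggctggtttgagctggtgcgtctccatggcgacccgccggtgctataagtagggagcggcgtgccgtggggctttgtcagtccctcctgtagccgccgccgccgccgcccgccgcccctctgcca
ODC1 downstream start, chr2:10447963-10448262, minus strand: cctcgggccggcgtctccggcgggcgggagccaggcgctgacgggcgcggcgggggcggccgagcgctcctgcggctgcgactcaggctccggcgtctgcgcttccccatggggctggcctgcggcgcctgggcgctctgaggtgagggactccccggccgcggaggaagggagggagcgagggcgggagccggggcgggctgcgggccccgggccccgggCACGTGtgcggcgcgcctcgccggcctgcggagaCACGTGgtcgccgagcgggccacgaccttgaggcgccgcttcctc
SAT1, chrX:23782923-23783222, plus strand: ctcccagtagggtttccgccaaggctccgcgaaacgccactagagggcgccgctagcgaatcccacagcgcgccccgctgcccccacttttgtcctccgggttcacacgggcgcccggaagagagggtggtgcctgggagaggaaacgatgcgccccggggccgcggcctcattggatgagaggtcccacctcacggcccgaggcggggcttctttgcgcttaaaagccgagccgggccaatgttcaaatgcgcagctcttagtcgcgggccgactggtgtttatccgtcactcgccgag
The window of SRM held 1 E-box, beginning at base 52, while the upstream ODC1 window and that of SAT1 held 0. Of the genes, 7 matched the promoter table, and SMOX, PAOX and AZIN1 did not. The windows of AMD1, SMS, OAZ1 and OAZ2 held 0 E-boxes. CACGTG, which reads the same on both strands, was in 7.26% of all 35116 promoter windows of this length. The letters TGATGNAA, the core of the element that ATF4 binds, were in 3.62% of them, and the forkhead letters GTAAACA in 3.42%, on either strand. Neither was found in the windows of these 7 genes. A match is a run of letters and was not tested for binding.

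The synthesis enzymes fell under every drug treatment, and the pair of drugs lowered them most. All 4 were lower under osimertinib, under alpelisib and under both drugs. Over the 10 genes, 5 were called lower and 1 higher under osimertinib, against 14.0% and 16.4% of all genes tested (30.4% either way). Under alpelisib 4 were called lower and 1 higher, against 4.38% and 7.08% (11.5% either way). Under both drugs 6 were called lower and 2 higher, against 19.2% and 21.4% (40.6% either way). The median difference over the 10 genes was -0.18 log2 units under osimertinib, -0.11 under alpelisib and -0.29 under both drugs, beside 0.01, 0.00 and 0.00 over all genes.

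ODC1, the first enzyme of synthesis, had a log2 intensity of 12.09 with vehicle, 11.56 with alpelisib, 10.82 with osimertinib and 10.23 with both drugs. With L-histidinol the corresponding values were 12.22, 11.78, 11.30 and 10.73. The 4 arrays with osimertinib were all below the 4 without it, and both arrays of the combination were below every other array. How many of all genes separate by osimertinib in this way was not counted, which also limits the like statements on SRM and AMD1 below. In linear intensity ODC1 went from 4348 in the vehicle array to 1197 in the array with both drugs. The fitted difference from vehicle was -1.10 ± 0.08 (SE) under osimertinib (adjusted p = 4.8e-06) and -1.67 ± 0.08 under both drugs (adjusted p = 8.6e-08), a 3.19-fold lower level. Under alpelisib it was -0.48 ± 0.08 (adjusted p = 0.0050), and that call was lost without the array of L-histidinol plus alpelisib (-0.40, adjusted p = 0.15) or without the intensity trend in the prior variance (adjusted p = 0.062).

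SRM, which makes spermidine, ran in the same order. Its log2 intensity was 10.93 with vehicle, 10.38 with alpelisib, 9.97 with osimertinib and 9.13 with both drugs, and 10.98, 10.39, 10.12 and 9.42 with L-histidinol added. The arrays with osimertinib again lay wholly below those without. SRM fell by 0.91 under osimertinib (SE 0.07, adjusted p = 6.1e-06) and by 1.68 under both drugs (SE 0.07, adjusted p = 3.0e-08), which is 3.21-fold. Under alpelisib it fell by 0.57 (SE 0.07, adjusted p = 9.7e-04), a call lost without the array of L-histidinol plus alpelisib (adjusted p = 0.058).

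AMD1, the supplier of the aminopropyl donor, was at log2 9.31 with vehicle, 8.95 with alpelisib, 8.72 with osimertinib and 8.20 with both drugs, and at 9.37, 9.06, 8.77 and 8.44 with L-histidinol added. Its arrays stood in the same order as those of ODC1 and SRM, and those with osimertinib did not overlap those without. It fell by 0.60 under osimertinib (SE 0.07, adjusted p = 1.0e-04) and by 1.02 under both drugs (SE 0.07, adjusted p = 8.0e-07). Its difference under alpelisib was -0.34 ± 0.07 (adjusted p = 0.014), and the call was lost without the vehicle array or either array of alpelisib alone or with L-histidinol (adjusted p = 0.086 to 0.21), and without the intensity trend in the prior variance (adjusted p = 0.078).

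SMS, which makes spermine, moved least of the 4. Its log2 intensity was 11.35 with vehicle, 11.14 with alpelisib, 11.06 with osimertinib and 10.92 with both drugs, and 11.21, 11.02, 10.96 and 10.84 with L-histidinol added. Each drug-treated array was below the vehicle array with the same L-histidinol state, although arrays with and without osimertinib overlapped. SMS fell by 0.27 under osimertinib (SE 0.05, adjusted p = 0.0021) and by 0.40 under both drugs (SE 0.05, adjusted p = 6.2e-05). Under alpelisib the value was -0.20 ± 0.05 (adjusted p = 0.031), and leaving out any of 5 arrays (vehicle, osimertinib, alpelisib, and either single drug with L-histidinol) ended that call, with adjusted p of 0.069 to 0.30, as did quantile normalisation (-0.15, adjusted p = 0.072), all 2-way terms (0.051), the mean of probe sets over all genes (0.063) and a prior without the trend (0.19).

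**Figure D1:**
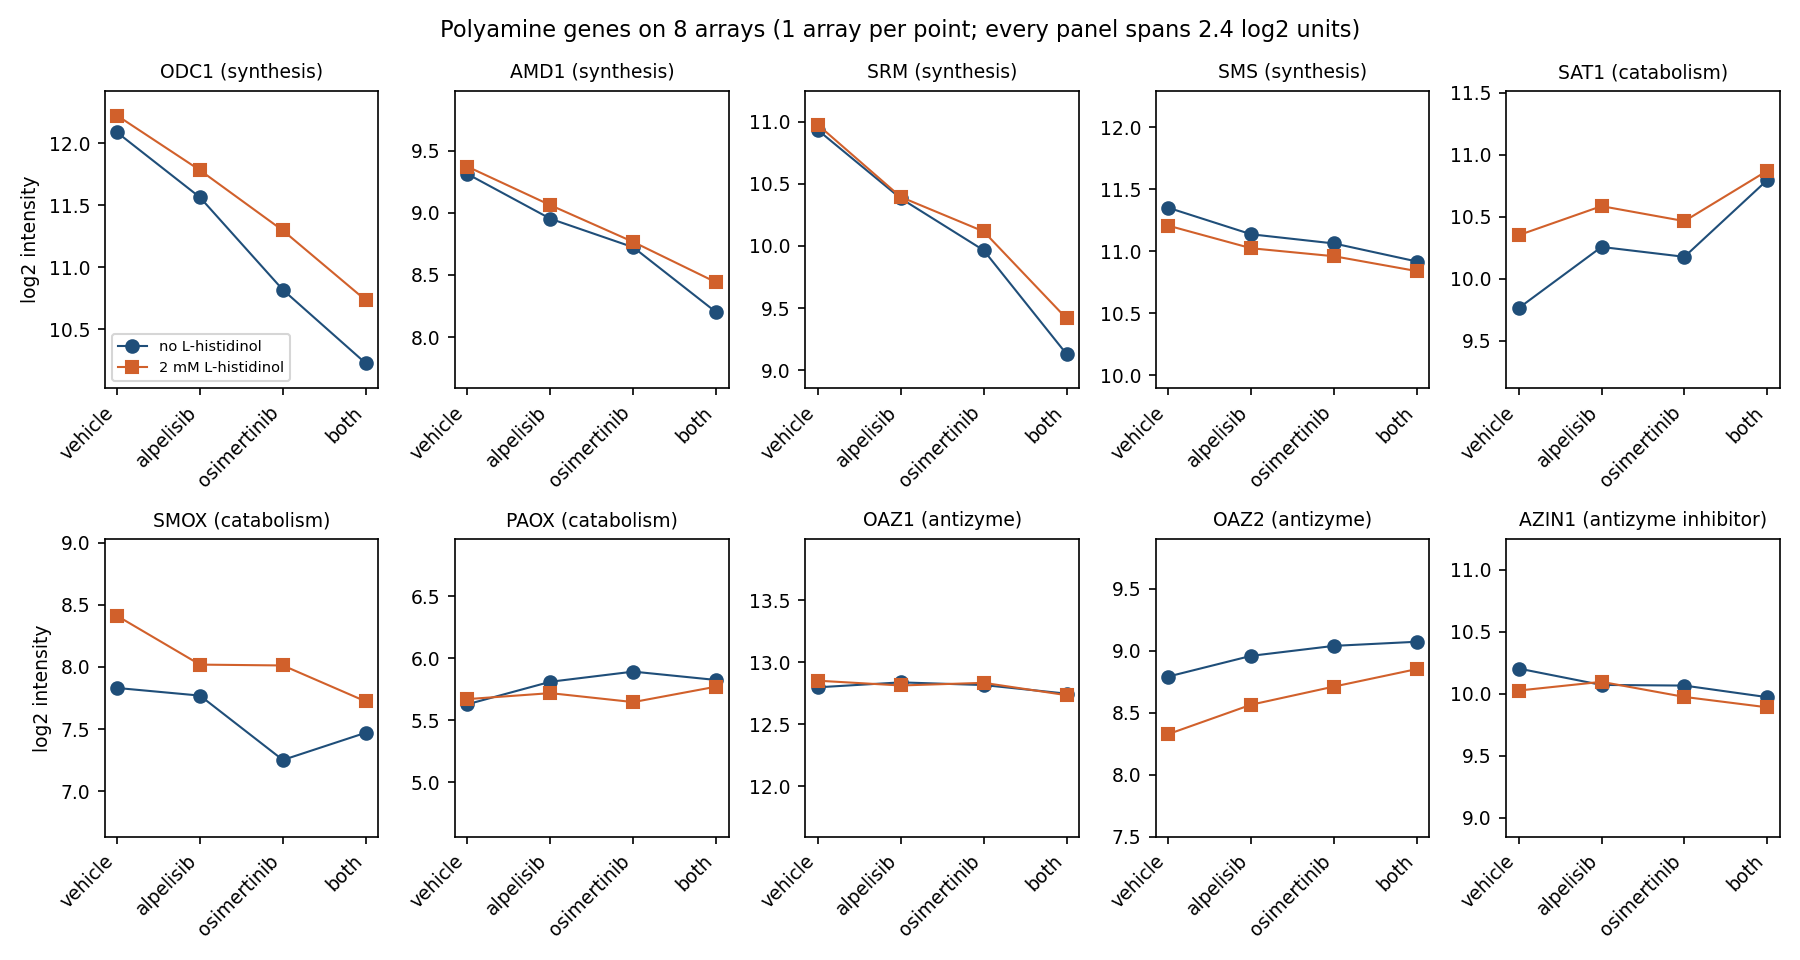
Log2 intensity of the 10 polyamine genes on each of the 8 arrays, by drug treatment (horizontal axis), without L-histidinol (blue circles) and with 2 mM L-histidinol (orange squares); each point is 1 array, lines join arrays for reading only, and all panels span the same number of log2 units. ODC1, AMD1 and SRM step down from vehicle through alpelisib and osimertinib to both drugs, and OAZ1 stays between 12.74 and 12.85. SAT1 is lowest with vehicle and highest with both drugs in each L-histidinol state, and lower with osimertinib than with alpelisib.

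The single drugs differed in size. ODC1 was 0.62 log2 units lower under osimertinib than under alpelisib (SE 0.08, adjusted p = 0.0010), SRM 0.35 lower (SE 0.07, adjusted p = 0.011) and AMD1 0.26 lower (SE 0.07, adjusted p = 0.042). These 3 genes were called lower and 0 higher, against 5.51% and 5.54% of all genes (11.0% either way). The ODC1 call held with any array left out, whereas those of SRM and AMD1 were lost without either osimertinib array or the alpelisib array, with adjusted p of 0.098 to 0.35, and that of AMD1 also without L-histidinol plus alpelisib (adjusted p = 0.24). Without the intensity trend in the prior variance neither was called (adjusted p = 0.086 for SRM and 0.13 for AMD1), and AMD1 was not called with median-centred arrays (0.051) or all 2-way terms (0.054). SMS differed by -0.07 between the drugs (95% interval -0.18 to 0.04, adjusted p = 0.49) and SAT1 by -0.10 (-0.31 to 0.11, adjusted p = 0.60).

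Adding the other drug lowered ODC1, SRM and AMD1 further, whichever drug came first, and SMS passed the test only against alpelisib. Against osimertinib alone, both drugs together gave ODC1 a difference of -0.58 ± 0.08 (adjusted p = 0.0019), SRM -0.77 ± 0.07 (adjusted p = 2.5e-04) and AMD1 -0.42 ± 0.07 (adjusted p = 0.0039), and SMS -0.13 ± 0.05 (adjusted p = 0.12). There 3 of the 10 genes were called lower and 1, SAT1, higher, against 7.41% and 5.96% of all genes (13.4% either way). AMD1's call was lost without the osimertinib array (adjusted p = 0.075). Against alpelisib alone, ODC1 was lower by -1.19 ± 0.08 (adjusted p = 4.2e-06), SRM by -1.12 ± 0.07 (adjusted p = 2.5e-06), AMD1 by -0.69 ± 0.07 (adjusted p = 4.5e-05) and SMS by -0.20 ± 0.05 (adjusted p = 0.012). In that comparison 4 genes were called lower and 1 higher, against 14.4% and 14.6% (29.0% either way), and the SMS call was lost without either alpelisib array or the array of both drugs (adjusted p = 0.077 to 0.13), or without the trend in the prior (0.11).

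The difference under both drugs was set against the sum of the single-drug differences. The departure from that sum was -0.09 ± 0.12 log2 units for ODC1 (95% interval -0.36 to 0.17), -0.20 ± 0.10 for SRM (-0.43 to 0.02) and -0.09 ± 0.10 for AMD1 (-0.32 to 0.14). For SAT1 it was 0.15 ± 0.13 (-0.15 to 0.44). By limma 0 of the 10 genes were called, against 0.0303% of all genes. At an unadjusted p under 0.05 there were 0 of the 10 and 1748 of all 19775. SRM's value ran from -0.09 without the array of both drugs to -0.31 without that of both drugs with L-histidinol, and was -0.13 without the alpelisib array.

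**Figure D2:**
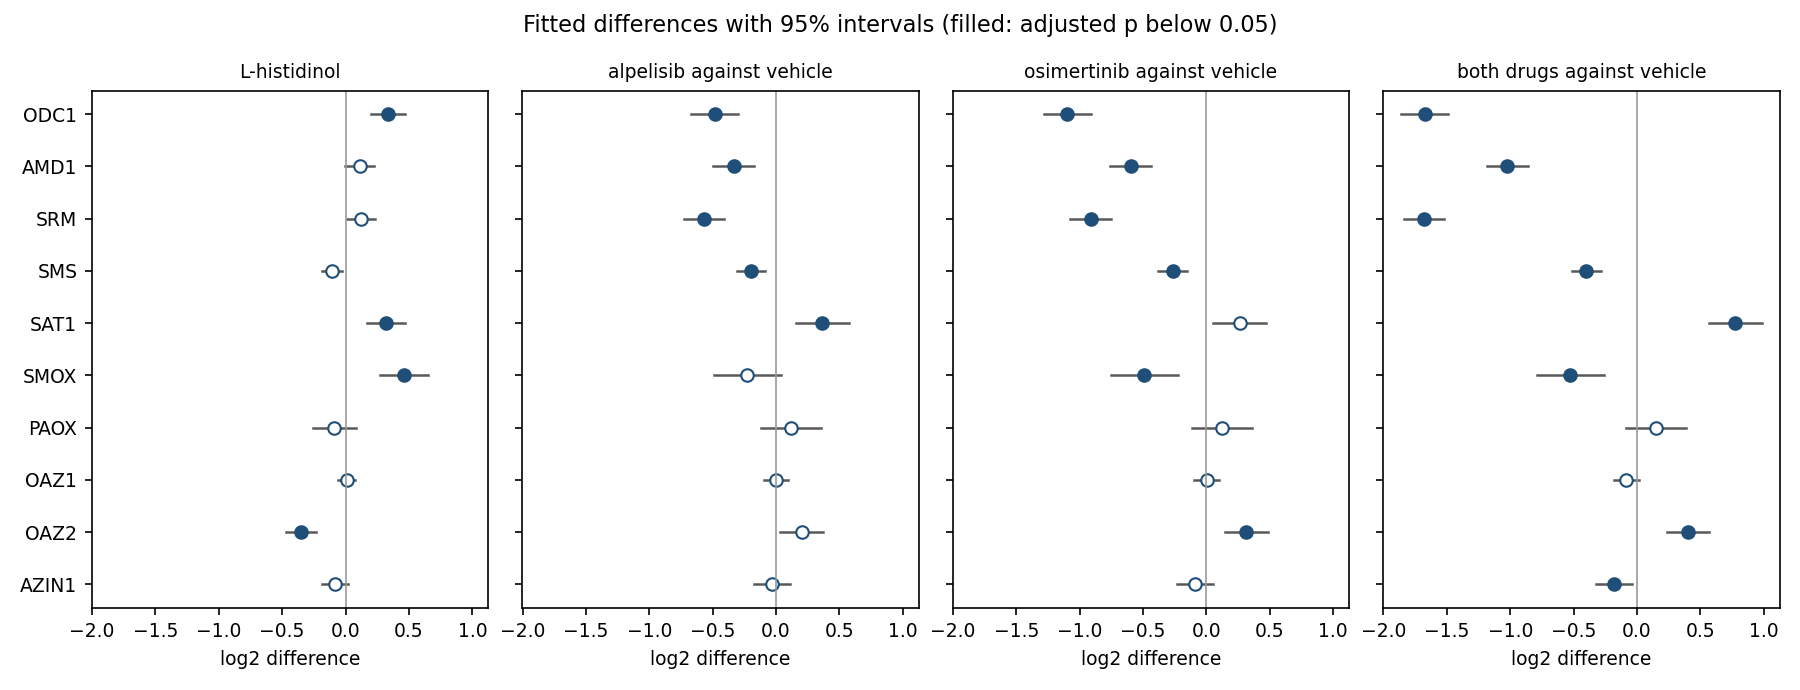
Fitted log2 differences of the 10 genes with 95% intervals in 4 comparisons (L-histidinol, alpelisib, osimertinib and both drugs, the drugs each against vehicle), from the limma fit over 8 arrays; filled points were called at adjusted p below 0.05. The synthesis enzymes lie left of 0 in all 3 drug comparisons, down to -1.68 for SRM under both drugs, while SAT1 lies right of 0 in all 4.

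The catabolic enzymes did not move as a group: SAT1 rose with both drugs and with L-histidinol, SMOX fell with osimertinib and rose with L-histidinol, and PAOX passed no test. SAT1, the rate-limiting enzyme of polyamine breakdown, had a log2 intensity of 9.76 with vehicle, 10.26 with alpelisib, 10.18 with osimertinib and 10.80 with both drugs. With L-histidinol these were 10.35, 10.59, 10.46 and 10.87. The vehicle array was the lowest of the 8, and the 2 arrays with both drugs were the highest. SAT1 rose by 0.78 ± 0.09 under both drugs (adjusted p = 3.9e-05), which is 1.71-fold. Under osimertinib the difference was 0.26 ± 0.09 (adjusted p = 0.057). Without the vehicle array it was 0.085 (adjusted p = 0.57), and without any of 4 other arrays it stayed uncalled (adjusted p = 0.097 to 0.26). It passed the threshold without the L-histidinol array (0.44, adjusted p = 0.0032) or either array of both drugs (adjusted p = 0.013), and also with quantile normalisation, without dim genes and with all 2-way terms (adjusted p = 0.0089 to 0.049). Under alpelisib it was 0.36 ± 0.09 (adjusted p = 0.031), a call lost without the vehicle array (0.19, adjusted p = 0.28) and without either alpelisib array or either array of osimertinib alone or with L-histidinol (adjusted p = 0.057 to 0.28), with the mean of its probe sets (adjusted p = 0.11) and without the trend in the prior (adjusted p = 0.14). Both drugs exceeded osimertinib by 0.51 ± 0.09 (adjusted p = 0.0055) and alpelisib by 0.41 ± 0.09 (adjusted p = 0.0063). The first of these calls was lost without either osimertinib array (adjusted p = 0.055 and 0.082) or the trend in the prior (0.056), and the second without either alpelisib array or the array of both drugs (adjusted p = 0.059 to 0.083; 0.25 without the latter).

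SMOX, spermine oxidase, had its highest value with L-histidinol alone and its lowest with osimertinib alone. Its log2 intensity was 7.83 with vehicle, 7.77 with alpelisib, 7.25 with osimertinib and 7.47 with both drugs, and 8.41, 8.02, 8.01 and 7.72 with L-histidinol. Every array with L-histidinol was above its partner without, and the groups overlapped across drug treatments. SMOX fell by 0.49 under osimertinib (SE 0.12, adjusted p = 0.0085) and by 0.52 under both drugs (SE 0.12, adjusted p = 0.0037). The osimertinib call was lost without the osimertinib array (-0.29, adjusted p = 0.18), without the L-histidinol array (-0.41, adjusted p = 0.069) and with the mean of its probe sets (-0.29, adjusted p = 0.057). PAOX, which oxidises acetylated polyamines, had log2 intensities of only 5.63 to 5.89, and its differences ran from -0.09 under L-histidinol to 0.15 under both drugs, none of them called (adjusted p = 0.33 to 0.60).

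Of the regulators, OAZ2 rose with osimertinib and with both drugs and fell with L-histidinol. OAZ2, an antizyme, was at log2 8.79 with vehicle, 8.96 with alpelisib, 9.04 with osimertinib and 9.07 with both drugs, and at 8.33, 8.56, 8.71 and 8.85 with L-histidinol. Drug-treated arrays lay above their vehicle partner in both L-histidinol states. The difference was 0.32 ± 0.08 under osimertinib (adjusted p = 0.0081), 0.20 ± 0.08 under alpelisib (adjusted p = 0.12) and 0.40 ± 0.08 under both drugs (adjusted p = 0.0011). The alpelisib value passed with quantile normalisation (0.23, adjusted p = 0.049) and was 0.13 without the L-histidinol array (adjusted p = 0.41). The osimertinib call was lost without either osimertinib array or the L-histidinol array (adjusted p = 0.064 to 0.088).

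OAZ1, the most widely expressed antizyme, spanned 12.74 to 12.85, a range of 0.12 log2 units, and its differences of -0.08 to 0.01 were not called in any of these 4 comparisons. The sign of its smallest differences turned with the scaling of the arrays. Antizyme protein is made through a ribosomal frameshift that polyamines themselves promote, which transcript levels do not show. AZIN1, the antizyme inhibitor, spanned 9.89 to 10.20. Its difference under both drugs was -0.18 ± 0.06 (adjusted p = 0.041), a call that was lost on leaving out any of 7 arrays, all but the one with L-histidinol alone (adjusted p = 0.063 to 0.27), with quantile normalisation (adjusted p = 0.15), without the trend in the prior variance (adjusted p = 0.14) and with all 2-way terms (adjusted p = 0.056).

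L-histidinol raised ODC1, SAT1 and SMOX and lowered OAZ2, so 3 of the 10 genes were called higher and 1 lower, against 11.4% and 9.17% of all genes tested (20.6% either way). The median over the 10 genes was 0.06 log2 units, beside -0.01 over all genes. ODC1 rose by 0.34 ± 0.06 (adjusted p = 0.0024), SAT1 by 0.32 ± 0.07 (adjusted p = 0.0060) and SMOX by 0.46 ± 0.08 (adjusted p = 0.0029), and OAZ2 fell by 0.35 (SE 0.05, adjusted p = 0.0011). These 4 genes moved the same way in all 4 pairs, and so did AMD1, SRM and SMS, which were not called. The share of all genes that did so was not counted. AMD1 (0.11 ± 0.05, adjusted p = 0.16), SRM (0.12 ± 0.05, adjusted p = 0.12) and SMS (-0.11 ± 0.04, adjusted p = 0.056) did not pass, and SMS passed with quantile normalisation (adjusted p = 0.040) or without dim genes (adjusted p = 0.033). The higher ACTB 3′ to 5′ ratio of the L-histidinol arrays moved with these differences, and its part in them was not tested.

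The size of the L-histidinol response differed by drug background in the single pairs. For ODC1 it was 0.14 with vehicle, 0.22 with alpelisib, 0.48 with osimertinib and 0.51 with both drugs, so it was larger in the pairs with osimertinib. For SAT1 it was 0.59 with vehicle, 0.33 with alpelisib, 0.29 with osimertinib and 0.07 with both drugs, the opposite order. For SMOX it was 0.58, 0.25, 0.76 and 0.25 in the same sequence, lower in the pairs with alpelisib. OAZ2 differed by -0.46, -0.39, -0.33 and -0.22, and SRM by 0.04, 0.01, 0.15 and 0.29.

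Tested as an interaction, the L-histidinol response of ODC1 was 0.32 ± 0.08 larger with osimertinib than without (adjusted p = 0.33) and that of SAT1 differed by -0.28 ± 0.09 (adjusted p = 0.47). With against without alpelisib, the response of SMOX differed by -0.42 ± 0.12 (adjusted p = 0.93). In limma, with the prior variance of the additive fit, 0 of the 10 genes and 0% of all genes were called in either interaction. At an unadjusted p under 0.05 there were 2 of the 10 genes and 1653 of all for osimertinib, and 2 and 998 for alpelisib. This fit had 1 residual degree of freedom, and the calls turned on the prior. With the prior that the same fit estimated for itself, at 103 degrees of freedom, ODC1 (adjusted p = 2.3e-04) and SAT1 (adjusted p = 0.0055) were called for osimertinib and SMOX (adjusted p = 0.0072) for alpelisib. An earlier analysis of this series had found that prior too confident. The share of all genes called with it is not given here, so these calls have no background to be read against.

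**Figure D3:**
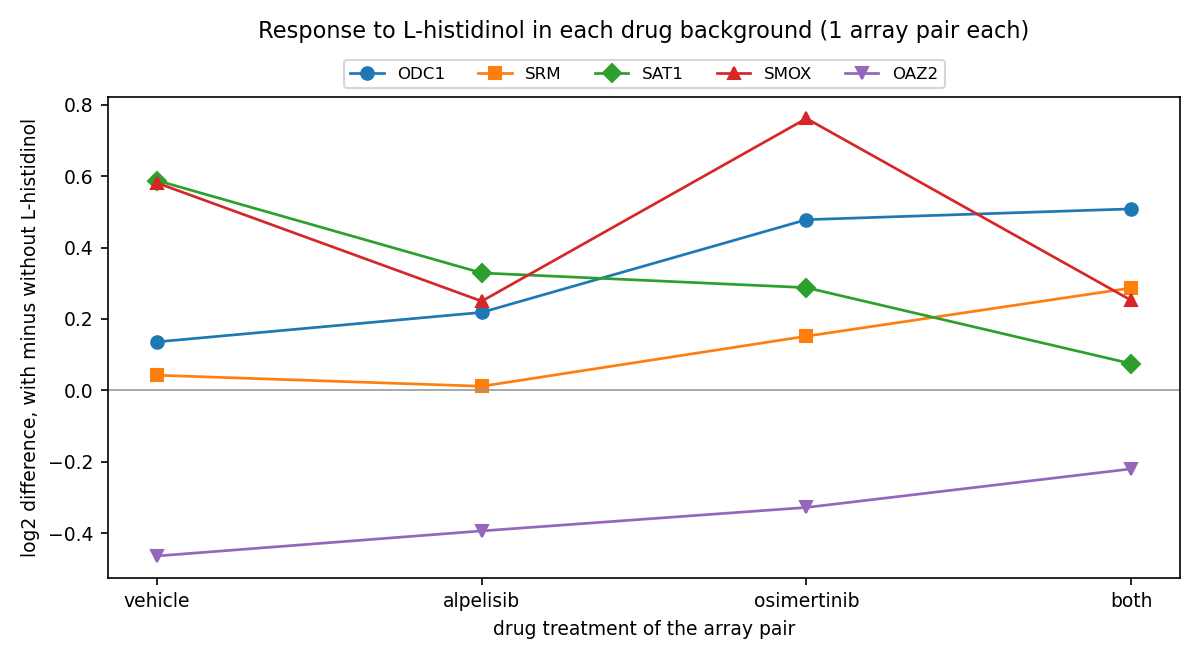
Log2 intensity with minus without L-histidinol for ODC1, SRM, SAT1, SMOX and OAZ2 in each drug background; each point is the difference of 1 pair of arrays and has no error of its own. ODC1 goes from 0.14 with vehicle to 0.51 with both drugs, and SAT1 from 0.59 to 0.07.

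Set against each other, synthesis was lower relative to catabolism on every treated array than on the vehicle array. The mean log2 difference from the vehicle array was -0.41 over the 4 synthesis enzymes and 0.20 over the 3 catabolic enzymes with alpelisib, -0.78 and 0.03 with osimertinib, and -1.30 and 0.29 with both drugs. With L-histidinol alone it was 0.02 and 0.40, with L-histidinol plus alpelisib -0.36 and 0.37, with L-histidinol plus osimertinib -0.64 and 0.30, and with all 3 agents -1.06 and 0.38. With PAOX left out, the catabolic mean was -0.08 with osimertinib, 0.22 with alpelisib and 0.34 with both drugs. On the arrays with L-histidinol it was then 0.44 to 0.58. With all 7 enzymes, synthesis minus catabolism ran from -0.38 with L-histidinol to -1.59 with both drugs, all 7 treated arrays being below the vehicle array. These values share that same vehicle array, which was the lowest of all arrays for SAT1 and for PAOX, so they are not independent. Over the pairs, synthesis minus catabolism was -0.68 ± 0.18 (SD, n = 2 pairs) for osimertinib, -0.48 ± 0.19 for alpelisib and -1.33 ± 0.37 for both drugs against vehicle. For L-histidinol it was -0.12 ± 0.22 (SD, n = 4 pairs), from -0.38 to 0.15, so its sign differed between drug backgrounds. That L-histidinol value was -0.27 with PAOX left out, -0.014 on probe sets whose names carry no mark of cross-matching, -0.028 without the vehicle or the L-histidinol array and -0.20 without either array of both drugs. These means describe the list and were not tested.

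**Figure D4:**
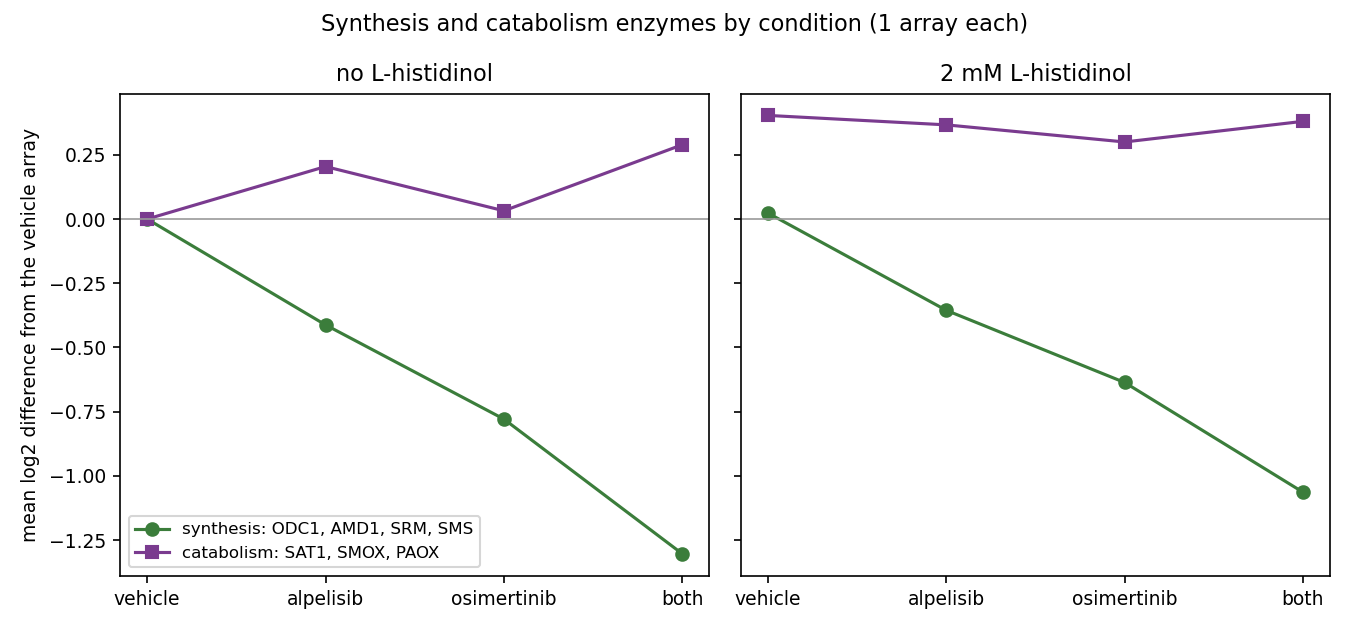
Mean log2 difference from the vehicle array over the synthesis enzymes (ODC1, AMD1, SRM, SMS) and over the catabolic enzymes (SAT1, SMOX, PAOX), by drug treatment, without (left) and with (right) L-histidinol; each point is 1 array. Synthesis drops to -1.30 with both drugs and to -1.06 with both drugs and L-histidinol, while catabolism lies between 0.00 and 0.40.

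Other probe sets gave a check for 7 of the genes, since ODC1, SRM and SMS have 1 each. Their values come from a fit over all 41091 probe sets with 1 symbol, chosen after seeing the data. The 3 probe sets of SAT1 (203455_s_at, 210592_s_at and 213988_s_at) gave 0.40, 0.32 and 0.31 under L-histidinol and 0.66, 0.78 and 0.77 under both drugs, all called, while under alpelisib only 210592_s_at, the one used, was called. For SMOX, 1555680_a_at gave 0.49 under L-histidinol, -0.40 under osimertinib and -0.55 under both drugs, close to the 210357_s_at used, and the dimmer 217074_at gave 0.16, 0.03 and -0.22, not called. The second probe set of OAZ2, 201365_at, gave 0.34 under osimertinib and 0.39 under both drugs, called, but -0.12 under L-histidinol, not called. For both drugs against alpelisib, 203455_s_at of SAT1 gave 0.29, not called, while 210592_s_at and 213988_s_at were called. Both AMD1 probe sets were called lower in each of the 3 drug comparisons with vehicle. For osimertinib against alpelisib, the second AMD1 probe set, 201196_s_at, gave -0.23, not called. A second OAZ1 probe set, 215952_s_at, gave -0.15 under both drugs, called. For AZIN1 under both drugs, 212461_at gave -0.14, not called. The dim 213747_at of AZIN1 gave -0.46 under osimertinib, called, where the one used gave -0.09, not called. For PAOX the 4 dim probe sets disagreed under both drugs: 238333_s_at gave -0.56 and 50400_at 0.50, both called, 221941_at 0.15 and 238334_at 0.00. No direction can be given for PAOX.

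Genes next to these in the pathway were read from lists, whose counts stand beside the shares of all genes called either way given above: 30.4% under osimertinib, 11.5% under alpelisib, 40.6% under both drugs and 20.6% under L-histidinol. Several alpelisib values of these genes rest on 1 array: without the vehicle array DOHH differed by -0.24 in place of -0.45 and MNT by 0.28 in place of 0.43, and without the L-histidinol array SLC3A2 by -0.23 in place of -0.35, none of them then called (adjusted p = 0.098 to 0.34). Spermidine is also the substrate for hypusine, the modified residue of eIF5A made by DHPS and DOHH. Of these 4 genes, 3 were called lower and 0 higher under osimertinib, 2 lower under alpelisib, and 3 lower and 1 higher under both drugs. EIF5A2 fell by 0.94 under osimertinib and by 0.83 under both drugs, and DOHH by 0.63 and 0.74. EIF5A fell by 0.23 under osimertinib and by 0.58 under both drugs, and DHPS rose by 0.26 under both drugs. L-histidinol raised EIF5A2 by 0.46 and called no other of the 4.

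Of 4 measured further polyamine genes, SAT2, a paralogue of SAT1, rose by 0.70 under osimertinib, by 1.00 under both drugs and by 0.29 under L-histidinol. AGMAT, annotated as an agmatinase, fell by 0.66 and by 0.84 in those drug comparisons. Under both drugs 3 of the 4 were called higher and 1 lower. Of 9 measured transport genes, 4 were called lower and 1 higher under both drugs, where 19.2% of all genes were called lower and 21.4% higher. The vesicular polyamine transporter SLC18B1 fell by 0.99 under both drugs, by 0.42 under osimertinib and by 0.42 under alpelisib, and rose by 0.34 under L-histidinol. ATP13A3, a polyamine importer, fell by 0.29 under osimertinib and by 0.35 under both drugs. SLC3A2, the heavy chain of amino acid exchangers that has been linked to polyamine export, rose by 1.11 under L-histidinol and fell by 0.35 under alpelisib.

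The 11 genes of arginine and ornithine supply went both ways, with 4 called higher and 4 lower under both drugs, and 4 higher and 2 lower under L-histidinol. The mitochondrial ornithine carrier SLC25A15 fell by 0.96 under osimertinib, by 0.49 under alpelisib and by 1.41 under both drugs. The arginine importer SLC7A1 fell by 0.80 under both drugs and rose by 0.74 under L-histidinol, as did the arginase ARG2, by 0.73. GATM, which uses arginine to make a creatine precursor, rose by 1.28 under osimertinib and 1.40 under both drugs, and ASS1, which acts in arginine synthesis, by 1.14 and 1.15. Of 12 genes of the methionine cycle and salvage, which make and recycle the aminopropyl donor's source, 7 were called lower and 2 higher under both drugs. ENOPH1 fell by 1.17 and MTAP, which clears the by-product of SRM and SMS, by 0.67 there, and MAT2A, which makes S-adenosylmethionine, fell by 0.39 under osimertinib (-0.22 without the vehicle array) and rose by 0.42 under L-histidinol.

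Of 9 measured genes of the MYC network, 2 were called higher and 3 lower under osimertinib and under both drugs, 2 higher and 0 lower under alpelisib, and 4 higher and 0 lower under L-histidinol. MYC fell by 0.64 under osimertinib and by 0.62 under both drugs and rose by 0.60 under L-histidinol, and its difference under alpelisib was -0.01 (adjusted p = 0.98). ODC1, SRM and AMD1 differed under alpelisib by -0.48, -0.57 and -0.34 beside it. MXI1, which competes with MYC for MAX, rose by 0.61 under osimertinib, 0.47 under alpelisib, 1.34 under both drugs and 0.80 under L-histidinol. MNT, another such competitor, rose by 0.60, 0.43 and 0.93 under the drug treatments, and MXD1 fell by 0.65 under osimertinib.

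The patterns most like those of 4 members were sought over the 8 arrays among 4558 genes with a mean log2 intensity of at least 7 and a range of at least 0.5. For ODC1 they were DEK (Pearson's r = 0.997), MAK16 (0.997) and NOC3L (0.996), and for SRM NAT10 (0.999), NPM3 (0.998) and WDR4 (0.998). For SAT1 they were SIGIRR (0.990), CHMP4C (0.990) and PPP1R14C (0.986), and for SMOX MTRFR (0.991), DNAAF2 (0.974) and IQCB1 (0.973). With 8 arrays that share their treatments, these values describe likeness and were not tested.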

How the data were processed

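Per the labels' protocols, RNA was extracted with RNeasy and hybridised as biotinylated cRNA. The deposited values are linear intensity per probe set, made by the authors with RMA and affy per the submitters' processing notes, which give no version for either. Log2 values had been foreseen, and log2 of the linear intensity was taken first. After removal of 62 control probe sets, 41091 with exactly 1 symbol in the platform annotation were kept, 41037 of which matched RefSeq by Entrez identifier, and the brightest per gene gave 19775 genes.

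The tool was limma 3.58.1 under R 4.3.3 (L-histidinol plus drug treatment, 8 arrays, 3 residual degrees of freedom, eBayes with an intensity trend), with Benjamini-Hochberg adjustment over all genes, and the scripts were tested on simulated data. Interactions were taken from a model with every 2-way term, moderated with the additive fit's prior of 8.08 degrees of freedom. No batch was known from the labels, and precision is limited by having 8 arrays. Named genes were all 10 members, up to 4 called genes of each list per comparison, the 3 most alike genes and treatment readouts. The members and lists were chosen with earlier results of these data known. Alternatives covered the probe set choice, scaling, an added offset, dim genes, the prior, 2-way terms and leaving out each array.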

Additional observations from a re-analysis of the deposited data

How the results depend on the processing

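Counts of called members that moved by over 1.5 times were as follows. Under L-histidinol 4 were called, and 2 on unsuffixed probe sets, those whose names carry no mark of cross-matching (such as _s or _x). Under alpelisib 5 were called, 1 without the trend in the prior, 3 with the mean of probe sets, and 0 to 5 with 1 array left out. With 1 array left out, 2 to 4 were called for both drugs against osimertinib (4 with all arrays), 3 to 6 for both drugs against alpelisib (5) and 1 to 3 for osimertinib against alpelisib (3, and 1 without the trend). With the 2-way fit's own prior, 2 instead of 0 were called for L-histidinol by osimertinib and 1 instead of 0 by alpelisib. That prior had been found too confident, and the share of all genes called with it is not given. The counts for osimertinib and for both drugs against vehicle stayed within 1.5 times under every alternative run. Synthesis minus catabolism was judged by its SD over the pairs. In the 3 drug comparisons with vehicle, no alternative of probe sets, scaling, offset or PAOX moved it by more than that SD. Leaving out 1 array could not do so by construction, since it leaves 1 of 2 pairs or changes nothing. For L-histidinol, synthesis minus catabolism was -0.12 as given and ran from -0.27 to -0.014 over its alternatives, moves smaller than its SD of 0.22. With 1 array left out such a small move was again fixed in advance, so it is no sign of stability.

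Signs turned for these values. OAZ1 gave -0.014 with quantile normalisation and -0.0064 to 0.020 with 1 array left out under L-histidinol. Under osimertinib it gave -0.014 with the mean of probe sets, -0.014 with median-centred arrays and -0.013 with quantile normalisation, and -0.029 to 0.030 with 1 array left out. Under alpelisib it gave -0.037, -0.0099 and -0.017, and -0.029 to 0.030. PAOX under L-histidinol gave 0.0043 with the mean of probe sets, and AZIN1 under alpelisib -0.10 to 0.040 with 1 array left out. On unsuffixed probe sets SMOX gave 0.026 under osimertinib, -0.22 as departure from additivity (-0.0082 to 0.39 with 1 array left out) and 0.075 for L-histidinol by alpelisib. Of other genes, MAX under L-histidinol (0.16 as fitted) gave -0.055 with the mean of probe sets and -0.46 (adjusted p = 0.011) on unsuffixed ones, KRT19 under alpelisib -0.015 and OAZ3 under osimertinib -0.0081 with the mean, and AGMAT under both drugs 0.070 unsuffixed. The cause was not tested. Over the called members' alternatives, 495 values kept direction and call, 64 lost the call and 1 turned, and of those of the related genes, readouts and markers 1565 kept both, 155 lost the call and 5 turned. With an array left out, an arm has 1 array, which is assumed to vary like the others. Interactions with L-histidinol were not fitted with an array left out, where no residual degree of freedom would be left.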
